A study of Drosophila melanogaster with 9 samples.

Results

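The 31 genes described here encode neuropeptides and peptide hormones of Drosophila melanogaster, and their messenger RNA was measured in whole first instar larvae. They were taken by FlyBase symbol from a fixed list of names, and all 31 were found among the 17611 gene IDs counted. The list was chosen with earlier results of these data known. The 9 RNA-seq libraries fall into 3 groups of 3. The roX-KO males carry roX1[ex6] and roX2[9-4], which the labels call a double knockout of roX1 and roX2. The wild-type females and the wild-type males carry no listed mutation. The roX RNAs are noncoding parts of the MSL complex, which raises transcription of the single male X chromosome, and the series asks what their loss does to transcription. None of the 31 genes lies on the X: 5 are on arm 2L, 5 on 2R, 6 on 3L and 15 on 3R.

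Neuropeptides are cut from larger precursors in neurons and endocrine cells, stored in dense-core vesicles and released either near their targets or into the hemolymph, where most act through G protein-coupled receptors. In fly larvae a small number of cells make each one. Insulin-like peptides from the brain drive growth, adipokinetic hormone releases stored energy, a set of hormones times moulting and ecdysis, and others set water balance, feeding, gut activity, muscle contraction and the daily clock.

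Each library held between 17318293 and 18020359 counts in genes. The deleted genes matched the labels: roX2 had 0, 0 and 0 counts in the roX-KO males, with 3, 4 and 6 in the wild-type females and 150, 181 and 162 in the wild-type males, and roX1 had 52 to 68 counts in the roX-KO males, 314 to 440 in the wild-type females and 4964 to 6002 in the wild-type males. Whether the 3 libraries of a group stem from different cultures or animals is not stated, and p-values therefore reflect the spread among libraries alone, which may be technical. The females were deposited apart from the males and their protocol text also names males, so sex and a difference in preparation cannot be told apart. Female library 3 stood apart: its log2 CPM (library-size scaled counts) correlated with those of females 1 and 2 at r of 0.955 and 0.958 over genes, against 0.991 to 0.996 within the male groups and 0.996 between females 1 and 2. Relative to the other females, its values lay 0.68 higher at the median on the log2 scale over 2197 genes with up to 1 kb of exon and 0.76 lower (median -0.76) over 2137 genes with more than 4 kb. Wild-type male 2 deviated from the other wild-type males in the same way by less, 0.21 and -0.30. The 31 genes are short, with 478 to 4686 bases of exon and a median of 1033, against a median of 1950 over the genes tested.

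All 31 genes passed the filter on low counts in all 3 comparisons. Ilp5 passed only through its wild-type libraries, since each roX-KO library held fewer than 10 counts, the minimum of that filter. It had the fewest counts, 2 to 33 per library, followed by Ptth with 11 to 54, Ilp3 with 11 to 40, Dsk with 15 to 43, Eh with 16 to 45 and SIFa with 30 to 67. Counting error weighs most on these 6 genes. Nplp1 had the most counts, 511 to 1008 per library. Per kilobase of exon (RPKM, mean of 9 libraries), the most abundant was Dh31 at 23.7, followed by Proc at 19.8, Ilp2 at 19.8, AstC at 18.2, CCHa2 at 18.1, Nplp1 at 16.0 and AstA at 14.8. The order of neighbours held in some groups and not in others: Proc stood at 25.2 ± 1.64 RPKM and Ilp2 at 15.6 ± 1.50 RPKM in roX-KO males, while in wild-type males Proc stood at 13.9 ± 2.14 and Ilp2 at 20.5 ± 3.51 (SD, n = 3 each). AstC and CCHa2, at 19.4 ± 1.26 and 19.4 ± 0.824 RPKM in roX-KO males, differed by less than the spread between libraries there. At the low end were Dsk at 2.86, Eh at 2.39, Ilp5 at 1.92, Ilp3 at 1.78 and Ptth at 1.40 RPKM. Ilp5 stood at 0.357 ± 0.128 RPKM in roX-KO males, the lowest of the 31 genes in that group, 1.66 ± 0.248 in wild-type females and 3.75 ± 0.533 in wild-type males. RNA of whole larvae cannot tell fewer cells that make a peptide apart from less RNA in each of them.

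**Figure D1:**
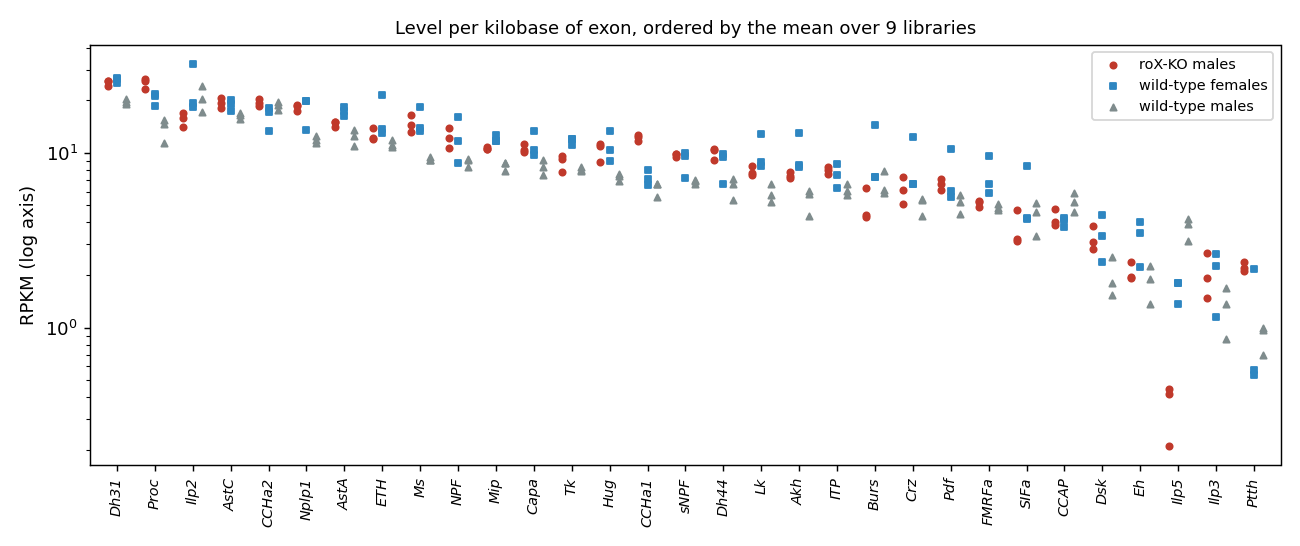
RPKM of each of the 31 genes in every library on a log axis, ordered from left to right by the mean over 9 libraries, with roX-KO males as circles, wild-type females as squares and wild-type males as triangles. Levels run from Dh31 (mean 23.7) to Ptth (mean 1.40), and the Ilp5 values of the roX-KO males lie below those of every other gene.

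As a group, the peptide genes were higher in both roX-KO males and wild-type females than in wild-type males. Their summed level was 440, 428 and 437 CPM in roX-KO males, with 439, 442 and 439 CPM in wild-type females and 326, 331 and 340 CPM in wild-type males, and the wild-type males overlapped neither of the other groups. Between roX-KO males and wild-type males, 19 of the 31 genes were called higher, 2 were called lower and 10 were not called (edgeR's quasi-likelihood test, Benjamini-Hochberg adjusted p under 0.05). One of the lower calls was that of Ilp5, which entered the test through its wild-type male counts alone. Over all 11172 genes tested, 31.4% were called higher, 32.1% lower and 63.5% either way, so a call by itself was common in this comparison. The median log2 fold change was 0.37 over the 31 genes and 0.02 over all genes tested. None of the 31 lies on the X. Over the 9421 genes tested that are not on the X, the median was 0.08, with 34.7% called higher and 27.1% lower. In 20 of the 31 genes every roX-KO library lay above every wild-type male library, in 2 every one lay below, and in 9 the groups overlapped. Among all genes tested 34.7% lay wholly above and 34.7% wholly below, or 69.5% in all. Neuronal marker genes moved the same way under this scaling, with 17 of 20 called higher, and all 14 body wall muscle genes were called lower. When libraries were scaled by their total counts instead, the split over all genes became 48.9% higher and 21.4% lower, the median of all genes moved to 0.25 and that of the 31 genes to 0.60, with 25 called higher and 1 lower.

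**Figure D2:**
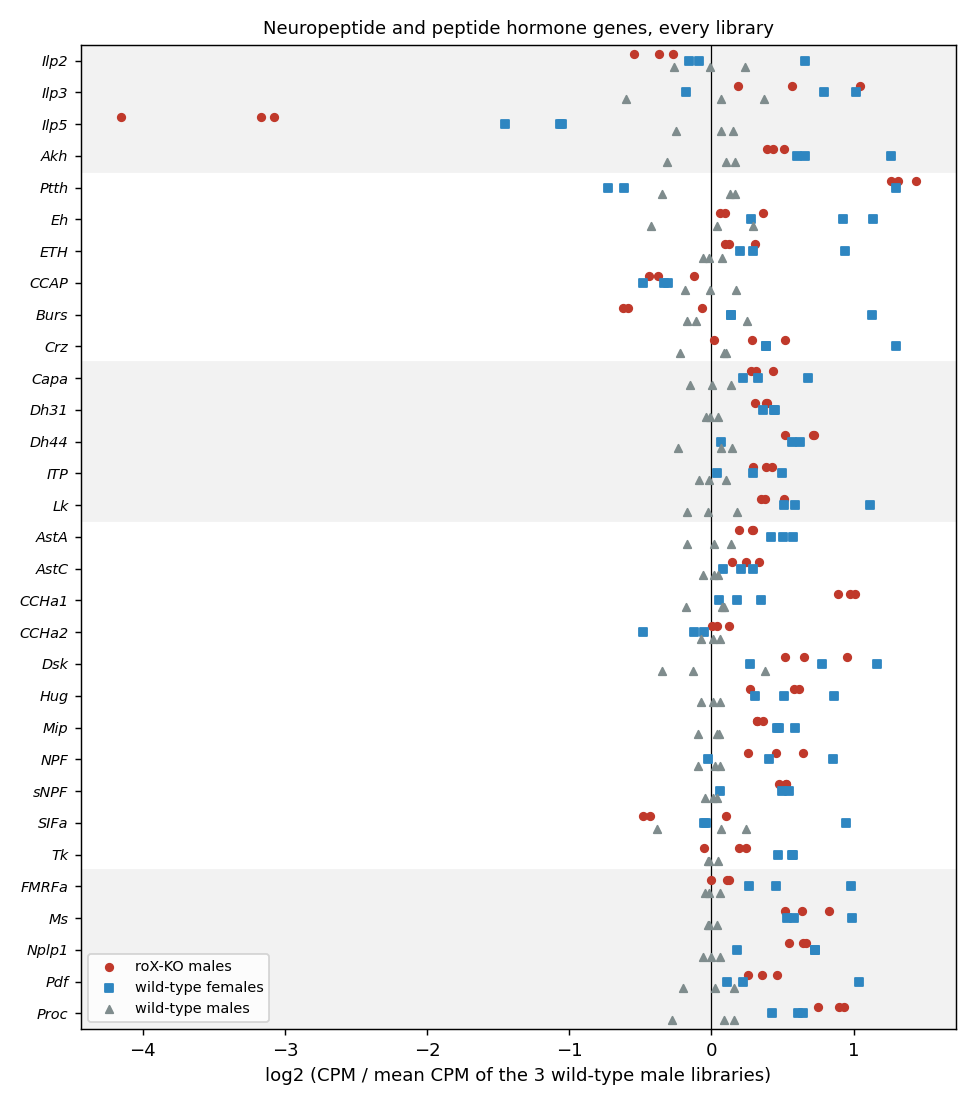
Level of each of the 31 genes in every library, as log2 of CPM over the mean CPM of the 3 wild-type male libraries, with roX-KO males as circles, wild-type females as squares and wild-type males as triangles; shaded bands separate insulin-like peptides and Akh, moulting hormones, diuretic peptides, feeding and gut peptides, and muscle, clock and other neuronal peptides. Most circles and squares lie right of 0, Ilp5 lies far to the left in roX-KO males, and Ptth lies to the right in roX-KO males and in female 3.

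The insulin-like peptides of the brain did not move together. Ilp5 had 2, 4 and 4 counts in roX-KO males, with 16, 12 and 13 in wild-type females and 32, 33 and 25 in wild-type males. The 3 groups did not overlap, and the roX-KO males were lowest. The gene (FBgn0044048, dm6 arm 3L, 9823349 to 9823897 on the minus strand) had a log2 fold change of -3.34 ± 0.33 (SE) in roX-KO males against wild-type males, with an adjusted p of 2.84e-06. Its size rests on 10 counts over the 3 roX-KO libraries and 90 over the 3 wild-type male libraries. A gene with so few counts in roX-KO males could pass the filter only by being higher in the other group; with no filter on low counts, the value was -3.34 (adjusted p = 1.78e-08 over all genes). Over the 14 alternatives that tested Ilp5, the adjusted p ran from 1.78e-08 to 5.47e-05. Most of these used the same filter, and all drew on the same libraries, so the range is no separate evidence for the call. Ilp2, the most abundant of the 3 in RPKM, had 226, 177 and 213 counts in roX-KO males, with 239, 225 and 329 in wild-type females and 195, 267 and 226 in wild-type males. On the CPM scale it averaged 10.5 ± 1.00 in roX-KO males, 15.6 ± 5.27 in wild-type females and 13.7 ± 2.35 in wild-type males (SD, n = 3 each), and the 2 male groups almost touched, the highest roX-KO and the lowest wild-type male library both rounding to 11.4 CPM. The log2 fold change between the male groups was -0.38 ± 0.13 (SE, adjusted p = 0.0202), and the call was lost and the value moved to 0.05 (adjusted p = 0.652) once the exon length trend described below was removed. Ilp3 had 40, 21 and 29 counts in roX-KO males, with 16, 31 and 30 in wild-type females and 11, 17 and 21 in wild-type males. Its groups overlapped and it was not called, at 0.65 ± 0.30 (adjusted p = 0.0726).

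Akh, the fly counterpart of glucagon, made in the corpora cardiaca, had 76, 74 and 83 counts in roX-KO males, with 82, 84 and 106 in wild-type females and 40, 54 and 52 in wild-type males. Every wild-type male library was below every library of the other 2 groups. The log2 fold change in roX-KO males against wild-type males was 0.45 ± 0.16 (adjusted p = 0.0238).

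Of 6 hormones of moulting and ecdysis, 1 was called higher in roX-KO males than in wild-type males, beside 31.4% of all genes tested. Ptth, the brain hormone that drives the prothoracic gland to make ecdysone, had 49, 45 and 54 counts in roX-KO males, with 12, 11 and 37 in wild-type females and 19, 18 and 13 in wild-type males. The roX-KO males lay above both wild-type groups with the exception of female 3, whose normalised level of 2.44 CPM fell within the roX-KO range. The gene (FBgn0013323, dm6 arm 2L, 575711 to 576896 on the minus strand) was 2.53-fold higher in roX-KO males than in wild-type males, at a log2 fold change of 1.34 ± 0.20 (SE, adjusted p = 1.02e-04), the largest rise of the 31 genes. The others of this group were not called: ETH and Eh, which trigger ecdysis, stood at 0.18 ± 0.11 and 0.18 ± 0.23 on the log2 scale, Crz, which encodes corazonin, at 0.29 ± 0.17, CCAP, which acts in the ecdysis motor sequence, at -0.30 ± 0.14, and Burs, a subunit of the hormone that hardens the new cuticle, at -0.40 ± 0.18. ETH is counted with a caveat, because 90.5% of its exon length lies under the antisense gene asRNA:CR43257 and the protocol names no step that marks the strand. ETH had 180, 198 and 185 counts in roX-KO males, with 181, 190 and 247 in wild-type females and 143, 148 and 135 in wild-type males, and the antisense gene had 217, 218 and 208 in roX-KO males, with 201, 201 and 255 in wild-type females and 124, 170 and 130 in wild-type males, so reads of the pair cannot be told apart. Opposite-strand genes also lie over smaller parts of the exon length of Ptth (2.1%), CCAP (6.2%) and ITP (6.3%). Over Ptth this is cold, with 444 to 748 counts per library.

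All 5 genes for diuretic and ion transport peptides were called higher in roX-KO males, beside 31.4% of all genes tested. The calls for Capa and Lk were lost in some alternative settings. Dh44, related to the corticotropin-releasing factor of vertebrates, had 501, 413 and 503 counts in roX-KO males, with 436, 415 and 243 in wild-type females and 273, 215 and 281 in wild-type males. It averaged 24.1 ± 1.88 CPM in roX-KO males and 15.3 ± 2.06 CPM in wild-type males (SD, n = 3 each), a log2 fold change of 0.66 ± 0.11 (adjusted p = 1.74e-04). The male groups did not overlap, and female 3 fell among the wild-type males. Dh31, a calcitonin-like peptide of gut and brain, had 659, 592 and 667 counts in roX-KO males, with 641, 632 and 496 in wild-type females and 423, 434 and 419 in wild-type males, with 32.6 ± 1.05 CPM in roX-KO males and 25.4 ± 0.728 CPM in wild-type males and a log2 fold change of 0.37 ± 0.08 (adjusted p = 9.78e-04). Its wild-type males lay below all 6 other libraries. ITP, which encodes ion transport peptide, an antidiuretic hormone, had 769, 708 and 708 counts in roX-KO males, with 753, 644 and 448 in wild-type females and 461, 471 and 513 in wild-type males, with 37.2 ± 1.74 CPM in roX-KO males and 28.8 ± 1.96 CPM in wild-type males and a log2 fold change of 0.38 ± 0.08 (adjusted p = 0.00136). The male groups were apart, and female 3 overlapped the wild-type males. Capa, a peptide gene acting on the Malpighian tubules, had 155, 132 and 144 counts in roX-KO males, with 125, 133 and 140 in wild-type females and 89, 105 and 96 in wild-type males, at a log2 fold change of 0.35 ± 0.12 (adjusted p = 0.0215). Lk, which encodes the diuretic peptide leucokinin, had 95, 99 and 94 counts in roX-KO males, with 97, 101 and 121 in wild-type females and 71, 54 and 60 in wild-type males, at 0.42 ± 0.14 (adjusted p = 0.0194). For Capa and Lk the wild-type males lay below all 6 other libraries in CPM. Lk is uncertain in the same way as ETH, since 93.0% of its exon length lies under asRNA:CR44843, which had 95, 104 and 104 counts in roX-KO males, with 80, 76 and 109 in wild-type females and 76, 79 and 48 in wild-type males.

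Of the 11 feeding and gut-brain peptides, 8 were called higher in roX-KO males and none lower, beside 31.4% and 32.1% of all genes tested. CCHa1, made in gut endocrine cells and neurons, had 216, 188 and 213 counts in roX-KO males, with 113, 126 and 85 in wild-type females and 97, 79 and 95 in wild-type males. The roX-KO males, at 10.9, 9.98 and 10.6 CPM, lay above all 6 wild-type libraries, which ran from 4.77 to 6.88 CPM. The gene (FBgn0038199, dm6 arm 3R, 14092504 to 14096835 on the minus strand) was 1.95-fold higher in roX-KO males than in wild-type males, at a log2 fold change of 0.97 ± 0.11 (SE, adjusted p = 1.21e-05), and it was called in every alternative setting of that comparison. CCHa2, its relative made mainly in fat body and gut, averaged 28.3 ± 1.20 CPM in roX-KO males, 23.6 ± 3.61 in wild-type females and 27.2 ± 1.33 in wild-type males and was not called, at 0.06 ± 0.08 between the male groups.

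The short neuropeptide F gene sNPF, which promotes feeding, had 479, 439 and 482 counts in roX-KO males, with 453, 432 and 265 in wild-type females and 288, 268 and 285 in wild-type males. Its level was 23.8 ± 0.457 CPM in roX-KO males and 16.8 ± 0.501 CPM in wild-type males (log2 fold change 0.51 ± 0.08, adjusted p = 1.13e-04). The unrelated NPF, also a feeding peptide, had 145, 120 and 167 counts in roX-KO males, with 97, 129 and 146 in wild-type females and 85, 92 and 90 in wild-type males, at 0.47 ± 0.13 (adjusted p = 0.00722). For both genes the 2 male groups were apart, and for both the females ran from near the wild-type male level up to that of the roX-KO males or above it. Hug, whose products suppress feeding, had 224, 172 and 232 counts in roX-KO males, with 173, 197 and 208 in wild-type females and 134, 126 and 119 in wild-type males, and it averaged 10.7 ± 1.34 CPM in roX-KO males and 7.55 ± 0.350 CPM in wild-type males, with a log2 fold change of 0.51 ± 0.12 (adjusted p = 0.00239). Dsk, a satiety peptide related to cholecystokinin, had 43, 33 and 32 counts in roX-KO males, with 25, 35 and 38 in wild-type females and 15, 24 and 17 in wild-type males, at 0.72 ± 0.24 (adjusted p = 0.0187). Hug and Dsk were both lowest in the wild-type males by group mean, but 1 Dsk library of the females fell within the wild-type male range.

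The allatostatin genes rose less. AstA, whose peptide inhibits feeding, had 406, 412 and 440 counts in roX-KO males, with 471, 487 and 362 in wild-type females and 309, 326 and 264 in wild-type males, or 21.4 ± 0.841 CPM in roX-KO males against 17.9 ± 1.91 CPM in wild-type males, at 0.27 ± 0.09 on the log2 scale (adjusted p = 0.0263). AstC had 493, 439 and 437 counts in roX-KO males, with 422, 442 and 315 in wild-type females and 346, 312 and 331 in wild-type males, or 23.3 ± 1.52 CPM in roX-KO males against 19.7 ± 0.749 CPM in wild-type males, at 0.25 ± 0.08 (adjusted p = 0.0208). Mip, the allatostatin B gene, had 301, 277 and 296 counts in roX-KO males, with 301, 324 and 249 in wild-type females and 188, 201 and 203 in wild-type males, or 14.9 ± 0.250 CPM in roX-KO males against 11.8 ± 0.672 CPM in wild-type males, at 0.34 ± 0.09 (adjusted p = 0.00505). In all 3 the wild-type males were the lowest group, and neither of the other groups overlapped them. Tk, the tachykinin gene of brain and gut, had 307, 238 and 300 counts in roX-KO males, with 359, 356 and 274 in wild-type females and 219, 214 and 224 in wild-type males, and its male groups overlapped, at 0.14 ± 0.10 (adjusted p = 0.233). SIFa, expressed in a few brain neurons, was not called either, at -0.23 ± 0.22, and 21.1% of its exon length lies under the opposite-strand gene Start1.

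Of the 5 muscle-active, clock and other neuronal peptide genes, 4 were called higher in roX-KO males, beside 31.4% of all genes tested. Proc encodes proctolin, a peptide that enhances muscle contraction, and had 1013, 869 and 1047 counts in roX-KO males, with 792, 764 and 558 in wild-type females and 496, 374 and 507 in wild-type males. The 3 groups did not overlap, with roX-KO males highest at 49.8 ± 3.24 CPM, wild-type females at 40.4 ± 3.18 CPM and wild-type males at 27.4 ± 4.23 CPM, and the male groups differed by 0.87 ± 0.11 on the log2 scale (adjusted p = 1.67e-05). Nplp1, a precursor made in neurons of the ventral nerve cord and brain, had 934, 959 and 1008 counts in roX-KO males, with 985, 976 and 553 in wild-type females and 546, 511 and 558 in wild-type males. At 49.4 ± 2.07 CPM in roX-KO males against 32.2 ± 1.37 CPM in wild-type males, it gave a log2 fold change of 0.63 ± 0.08 (adjusted p = 1.46e-05). Ms encodes myosuppressin, which inhibits visceral muscle, and had 309, 364 and 340 counts in roX-KO males, with 292, 298 and 328 in wild-type females and 184, 185 and 178 in wild-type males. Its level was 17.3 ± 1.90 CPM in roX-KO males and 10.9 ± 0.247 CPM in wild-type males (0.67 ± 0.10, adjusted p = 9.65e-05). For Nplp1 and Ms the wild-type males lay below all 6 other libraries. Pdf, the peptide of the clock neurons, had 96, 79 and 90 counts in roX-KO males, with 70, 75 and 109 in wild-type females and 52, 59 and 65 in wild-type males, at 0.37 ± 0.14 (adjusted p = 0.0404), with the male groups apart and female 1 within the wild-type male range. FMRFa, which modulates muscle contraction, was not called, at 0.09 ± 0.11.

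Fold changes between the male groups followed exon length over the whole table: the median log2 fold change was -0.21 over 2131 genes with up to 1 kb of exon, -0.08 over 3575 with 1 to 2 kb, 0.08 over 3309 with 2 to 4 kb and 0.26 over 2137 with more than 4 kb. The peptide genes mostly lay above this trend. The 15 with up to 1 kb had a median of 0.35, with 7 called higher and 2 lower, beside 17.4% higher and 43.0% lower among all genes of that length. The 12 with 1 to 2 kb had a median of 0.30 and 8 called higher. All 3 with 2 to 4 kb, and ITP as the 1 gene above 4 kb, were called higher, and 26 of the 31 genes lay above the median of their length class. The length classes include the 1751 X genes tested, of which 58.9% were called lower (median -0.41), while none of the 31 lies on the X. Class medians without the X genes were not taken. With offsets that removed the length trend, an alternative added after the data were seen, 25 of the 31 genes were called higher and 1, Ilp5, lower, beside 39.6% higher and 31.1% lower over all genes. Besides Ilp5, calls for 11 genes held in every setting that tested them: CCHa1, Dh31, Dh44, Hug, ITP, Mip, Ms, Nplp1, Proc, Ptth and sNPF. The other 9, which are Akh, AstA, AstC, Capa, Dsk, Ilp2, Lk, NPF and Pdf, lost the call in at least 1 setting. Leaving out a single library was enough for 8 of these. Without roX-KO male 1 the calls for AstC, Capa, Dsk and Pdf were lost, without roX-KO male 2 those for AstA, Ilp2 and Lk, and without roX-KO male 3 those for Akh, AstA and Pdf. Without wild-type male 1 the calls for Akh, AstA, Capa, Dsk and Pdf were lost, without wild-type male 2 those for Ilp2, Lk and Pdf, and without wild-type male 3 those for AstA, AstC, Capa, Dsk and Lk. NPF lost its call only when the spread was estimated over all 9 libraries. The authors' deposited table called 12 of the 31 genes higher and 2 lower, beside 24.3% higher and 26.9% lower of its 12803 genes with an adjusted p. The DESeq2 alternative, run on the same libraries, gave the same numbers, so the deposited table is no separate evidence.

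**Figure D3:**
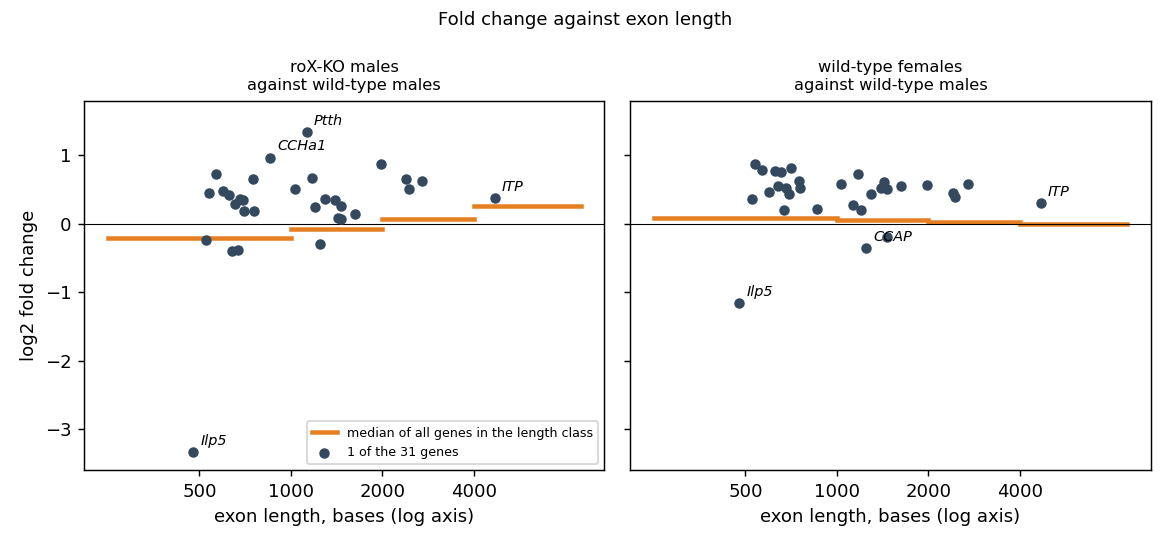
Log2 fold change against exon length (log axis) for the 31 genes as points, in roX-KO males against wild-type males at left and wild-type females against wild-type males at right; bars give the median of all genes tested in each length class. At left the bars climb from -0.21 to 0.26 while most points lie above them, and Ilp5 lies far below them in both panels.

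Wild-type females differed from wild-type males mainly in the same direction, with 8 genes called higher, 1 lower and 22 not called. Over all 11104 genes tested 10.8% were called higher, 11.2% lower and 22.0% either way. The median log2 fold change was 0.52 over the 31 genes, of which 28 were positive, and 0.04 over all genes. In 16 genes every female library lay above every wild-type male library, and in 2 every one lay below, beside 20.6% and 21.2% of all genes tested, or 41.8% in all. The 8 genes called higher were Akh at 0.88 ± 0.25 (adjusted p = 0.0465), Lk at 0.77 ± 0.22 (0.0483), Ms at 0.72 ± 0.16 (0.0206), Proc at 0.57 ± 0.15 (0.0399), Tk at 0.55 ± 0.11 (0.0159), Mip at 0.52 ± 0.12 (0.0237), AstA at 0.51 ± 0.13 (0.0319) and Dh31 at 0.43 ± 0.11 (0.0313). Tk was called here and not between the male groups, at 0.55 in wild-type females against wild-type males and 0.14 in roX-KO males against wild-type males; set directly against each other, roX-KO males and females did not pass the test for Tk (adjusted p = 0.0550). Both comparisons share the wild-type males. Ilp5 was 2.24-fold lower in wild-type females than in wild-type males, at -1.16 ± 0.23 (adjusted p = 0.0141), and CCAP was the other gene with all females below the wild-type males, at -0.36 ± 0.16 (adjusted p = 0.156).

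Calls between the sexes depended on single libraries. Without female 3, 15 of the genes were called higher and 1 lower, beside 26.1% higher and 26.1% lower over all genes. Without female 1 the counts were 1 and 1. Without wild-type male 3, 0 were called higher and 1 lower. Without female 2, wild-type male 1 or wild-type male 2, edgeR's quasi-likelihood test called 0 of the 31 genes, although 12 had an unadjusted p under 0.05 in each case. No share over all genes was taken for the fits without female 1, female 2 or a wild-type male. Whether the loss of calls was particular to the 31 genes or ran over the whole table was therefore not tested. DESeq2 on all 6 libraries called 10 higher and 1 lower, beside 11.0% higher and 12.7% lower over all genes. With the length trend removed, 20 were called higher and 1 lower (all genes 22.2% and 20.2%), and 22 higher and 1 lower once female 3 was left out as well (30.9% and 29.9%). The median fold change of the 31 genes stayed between 0.39 and 0.53 through these left-out libraries. Of the 15 genes with up to 1 kb of exon, 13 were higher in female 3 than in both other females, and of the 16 longer genes 11 were lower. The largest departure of female 3 from the other females was that of Ptth, which at 1128 bases of exon was among the longer genes. Its levels were 0.648, 0.601 and 2.44 CPM in the females. The log2 fold change of Ptth against wild-type males was 0.27 ± 0.58 with female 3 and -0.66 (adjusted p = 0.107) without it.

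**Figure D4:**
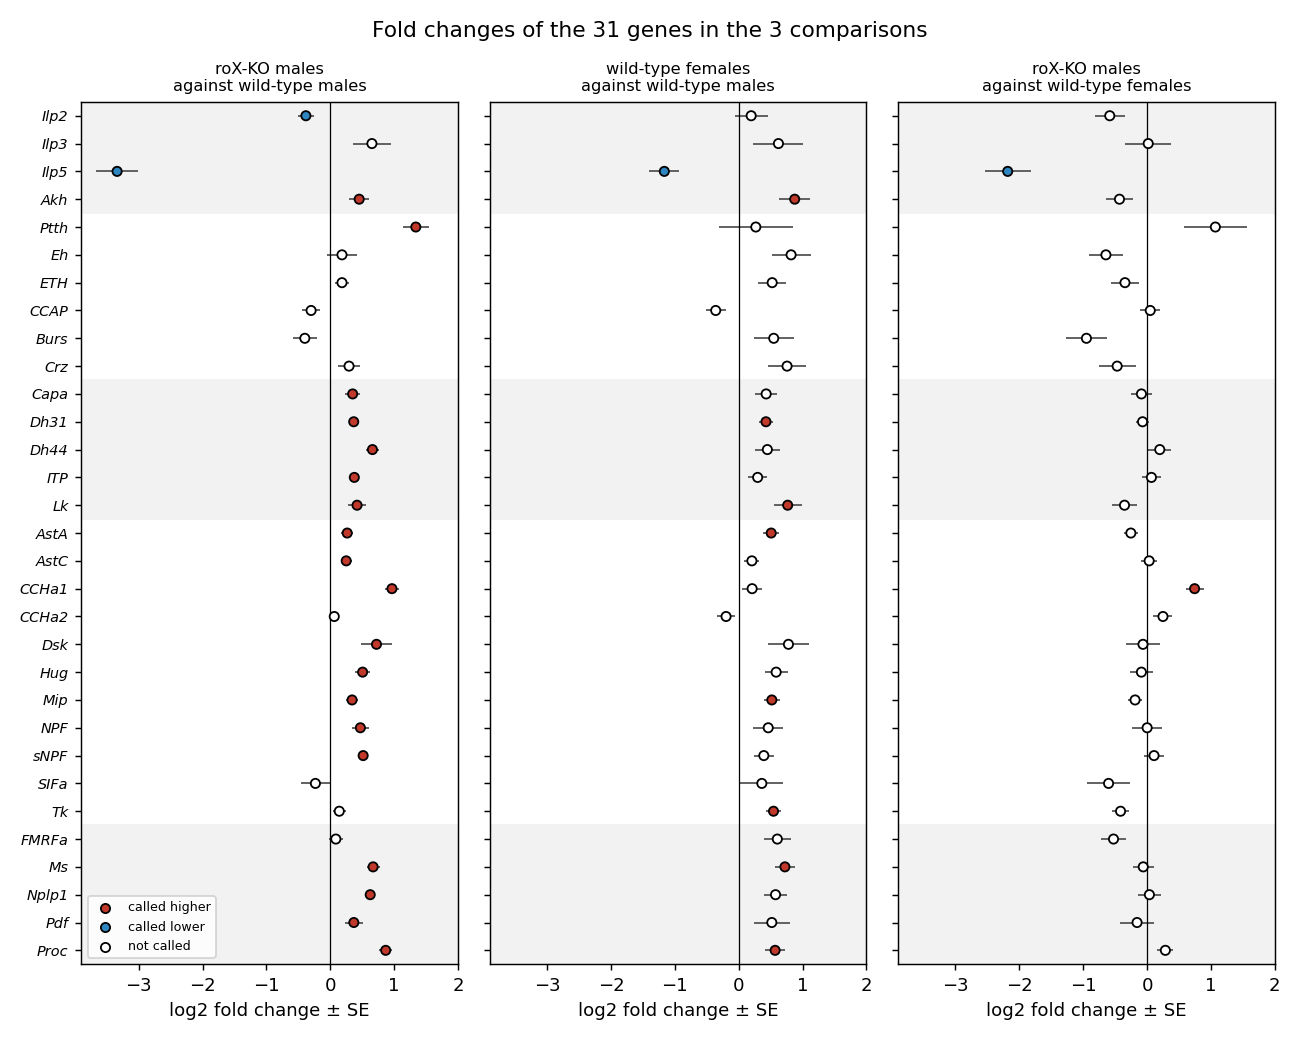
Log2 fold change with its standard error for each of the 31 genes in the 3 comparisons (roX-KO males against wild-type males, wild-type females against wild-type males, and roX-KO males against wild-type females), filled where called at an adjusted p under 0.05. Filled points number 21 in the first panel, 9 in the second and 2 in the third, and Ilp5 is low in all 3.

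Set directly against wild-type females, roX-KO males differed in few peptide genes: 1 was called higher, 1 lower and 29 were not called, beside 10.7% higher and 16.6% lower of 11173 genes tested. CCHa1 was higher by 0.75 ± 0.14 (adjusted p = 0.00840), and Ilp5 was lower, at -2.18 ± 0.36 (adjusted p = 0.00470), having passed the filter through the female counts alone. The median log2 fold change was -0.09 over the 31 genes and -0.01 over all genes. A missed call does not show that the groups were alike: Ptth stood at 1.07 ± 0.49 (adjusted p = 0.151) and Burs at -0.95 ± 0.32 (0.0689), both with wide standard errors, and Tk, with a narrower one, at -0.41 ± 0.13 (0.0550). In 3 genes every roX-KO library lay above every female library and in 8 every one lay below, beside 28.5% and 26.4% of all genes, or 54.9% in all; over all genes a call of either kind was made for 27.2%. DESeq2 called 1 higher and 3 lower (all genes 12.9% and 17.3%). With the length trend removed 5 were called higher and 1 lower (24.6% and 21.8%), and 7 higher and 3 lower once female 3 was left out as well (37.5% and 28.0%). Without female 3 alone, 3 genes were called higher and 7 lower (30.0% and 31.6%), Ptth reaching 1.98 ± 0.26 (adjusted p = 5.14e-06), Burs -0.56 and Tk -0.45 (adjusted p = 0.000603). Without roX-KO male 1 the call for CCHa1 was lost. By group means, 15 genes had the order females, roX-KO males, wild-type males from high to low, and 10 had roX-KO males, females, wild-type males.

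Of 34 genes for receptors of these peptides, 33 were tested between the male groups, 16 (48.5%) were called higher in roX-KO males and 0 lower, with a median log2 fold change of 0.36, beside 31.4% higher and 32.1% lower over all genes tested. These are long genes, 25 with 2 to 4 kb of exon and 7 with more than 4 kb. Among all genes of those lengths, 36.4% and 50.4% were called higher and 30.2% and 16.1% lower. With the length trend removed, 16 receptors were called higher and 2 lower, beside 39.6% and 31.1% over all genes. The insulin receptor InR, through which the Ilps act, had 1930, 2101 and 1907 counts in roX-KO males, with 740, 585 and 361 in wild-type females and 628, 510 and 715 in wild-type males. The roX-KO males lay far above both wild-type groups, which overlapped. The gene (FBgn0283499, dm6 arm 3R, 21570248 to 21619321 on the minus strand) was 2.76-fold higher in roX-KO males than in wild-type males, at 1.46 ± 0.11 (adjusted p = 2.66e-07), and 3.14-fold higher than in wild-type females, at 1.65 ± 0.21 (adjusted p = 0.00158). Both calls were made in every alternative setting, and with the length trend removed the values were 1.14 and 1.29. InR was highest in the same 3 libraries in which Ilp5 was lowest, the roX-KO males, where Ilp5 had 2, 4 and 4 counts. Ilp3 was not called between the male groups, and the call for Ilp2 was lost with the length trend removed. A link between InR and the Ilps was not tested.

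**Figure D5:**
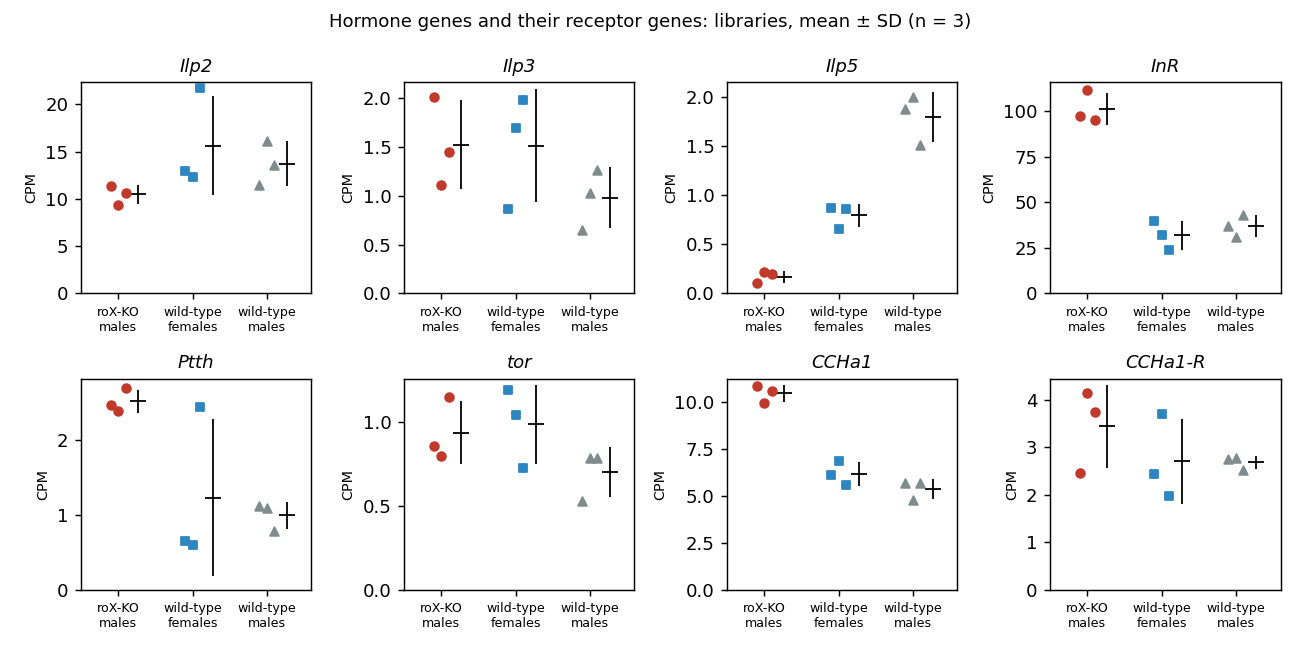
CPM in every library, with the mean ± SD of 3 libraries beside the points, for Ilp2, Ilp3, Ilp5 and the insulin receptor gene InR in the upper row and for Ptth with its receptor gene tor and CCHa1 with CCHa1-R in the lower row. Ilp5 is lowest and InR highest in roX-KO males, and Ptth in the females is split between female 3 and the other 2 libraries.

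After InR the largest rises among receptors between the male groups were those of TkR86C, a receptor of tachykinin-related peptides, at 1.25 ± 0.17, NPFR, the receptor of NPF, at 1.18 ± 0.14, and MsR1, a myosuppressin receptor, at 0.98 ± 0.14 (adjusted p = 3.07e-05, 1.11e-05 and 8.35e-05). Receptors of peptides described above varied. Dh44-R1 stood at 0.59 ± 0.17, Dh31-R at 0.57 ± 0.08, AkhR at 0.48 ± 0.08, sNPF-R at 0.56 ± 0.13, SPR, which also binds Mip, at 0.51 ± 0.12, and PK2-R1, a receptor of Hug products, at 0.57 ± 0.14, and all 6 were called higher. Those not called included CCHa1-R at 0.36 ± 0.20, the Ptth receptor gene tor at 0.43 ± 0.29, Proc-R at -0.13 ± 0.11, AstA-R1 at 0.45 ± 0.28, AstA-R2 at -0.21 ± 0.10, AstC-R2 at 0.22 ± 0.14 and Dh44-R2 at 0.09 ± 0.09. Exons of SPR and Dh44-R2 lie under opposite-strand genes over 26.8% and 33.2% of their length, so both are uncertain. In wild-type females against wild-type males, 5 of 33 receptors (15.2%) were called higher and 0 lower, beside 10.8% and 11.2% over all genes tested. The 5 were TkR86C at 0.85 ± 0.21, PK2-R2 at 0.77 ± 0.11, Dh44-R1 at 0.76 ± 0.20, PK2-R1 at 0.67 ± 0.16 and Dh31-R at 0.64 ± 0.14. Against wild-type females, roX-KO males were higher in InR and lower in PK2-R2, at -0.56 ± 0.11, with no other receptor called, beside 10.7% higher and 16.6% lower over all genes.

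Of 16 genes that process and package peptides, 10 (62.5%) were higher in roX-KO males than in wild-type males, 2 (12.5%) lower and 4 not called, with a median of 0.29. Over all genes tested the shares were 31.4% and 32.1%, and over genes with more than 4 kb of exon, which 8 of the 16 have, 50.4% and 16.1%. With the length trend removed, 10 were higher and 5 lower, beside 39.6% and 31.1% over all genes. The 12 genes not on the X held all 10 of the higher calls and 0 of the lower ones, and 2 of the 4 on the X were lower. Over all X genes tested, 13.3% were called higher and 58.9% lower in roX-KO males against wild-type males, with a median log2 fold change of -0.41; over genes not on the X the shares were 34.7% and 27.1%. The largest rises were those of Nep4, a neprilysin-type peptidase, at 1.07 ± 0.10, IA-2, a dense-core vesicle protein, at 0.92 ± 0.08, amon, the prohormone convertase that cuts many precursors, at 0.87 ± 0.08, and 7B2, the helper protein of that convertase, at 0.81 ± 0.08. Fur2, a furin-type convertase, stood at -0.95 ± 0.09 and the peptidase gene Nep1 at -0.73 ± 0.08, both on the X and both called lower. In wild-type females against wild-type males 5 of the 16 (31.2%) were higher and 0 lower, beside 10.8% and 11.2% over all genes. Among the 5 were Nep4 at 0.95 ± 0.19, Nep2 at 0.82 ± 0.11 and 7B2 at 0.65 ± 0.16. Of 15 other peptide hormone genes, outside the 31, that were tested between the male groups, 26.7% were called in each direction, beside 31.4% higher and 32.1% lower over all genes. The 4 higher were natalisin at 0.82 ± 0.19, spab at 0.74 ± 0.12, AstCC at 0.59 ± 0.19 and Gpb5 at 0.50 ± 0.14, and the 4 lower were Nplp2 at -0.94 ± 0.11, Nplp4 at -0.77 ± 0.10, the X-linked fat body insulin-like peptide gene Ilp6 at -0.77 ± 0.13 and the activin-like ligand gene daw at -0.23 ± 0.07. In wild-type females against wild-type males, Ilp8 at 1.33 ± 0.33 and natalisin at 0.82 ± 0.23 were the 2 (12.5%) called higher of 16 tested. With 0 called lower, this stood beside 10.8% higher and 11.2% lower over all genes.

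Among genes downstream of the growth and moulting hormones, 8 of 15 insulin and AKH pathway genes and 3 of 10 ecdysteroid synthesis genes were called either way between the male groups, beside 63.5% over all genes. Of the 16 genes in the insulin and AKH list, 15 were tested between the male groups, 6 (40.0%) were higher in roX-KO males and 2 (13.3%) lower, with a median of 0.16, beside 31.4% and 32.1% over all genes. Of these, 7 have more than 4 kb of exon, and with the length trend removed 5 were higher and 5 lower, beside 39.6% and 31.1% over all genes. The sugar-responsive AKH and insulin target tobi stood at 1.05 ± 0.10 and bmm, the lipase of stored fat, at 0.37 ± 0.08, while Thor, the translation inhibitor 4E-BP, stood at -0.70 ± 0.08 and Lsd-1, a lipid droplet protein, at -0.64 ± 0.08. Lsd-1 was lower in wild-type females too, at -1.72 ± 0.11 against wild-type males. Of 10 ecdysteroid synthesis genes, sro at 0.68 ± 0.25 and shd at 0.49 ± 0.08 were higher and phtm, on the X, at -0.67 ± 0.13 was lower in roX-KO males against wild-type males, and 7 were not called.

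Markers of cell types went in different directions between roX-KO males and wild-type males. Of 20 neuronal genes, 17 (85.0%) were higher and 1, the X-linked elav, lower in roX-KO males against wild-type males (median 0.72), beside 31.4% and 32.1% over all genes. Of these, 17 have more than 4 kb of exon, a length at which 50.4% of all genes were higher. With the length trend removed 17 were higher and 2 lower (median 0.57), beside 39.6% and 31.1% over all genes. Their summed level was 1090 to 1121 CPM in roX-KO males, 569 to 990 in wild-type females and 584 to 757 in wild-type males, with female 3, in which genes of that length lay lower by a median of -0.76, the lowest of the 9 libraries. Of 8 genes listed for enteroendocrine and neuroendocrine cells and tested, 5 were higher and 0 lower (median 0.60). The summed CPM of that list is no measure of those cells, since IA-2, nrv3, Rab3 and 7B2, which neurons also express, made up 96.4% to 97.2% of it, and IA-2, 7B2 and dimm are also in the processing list; of the 5 tested outside that list, 3 were higher. Of 10 listed glial genes, 9 were tested, with 5 (55.6%) higher and 2 (22.2%) lower. The list summed to 1059 to 1068 CPM in roX-KO males, 738 to 957 in wild-type females and 845 to 885 in wild-type males. A shorter list leaves out mdy, which encodes an enzyme of fat storage, a choice made after its values were seen. In that list 5 of 8 tested were higher and 1 lower. Its 9 genes summed to 1002 to 1015 CPM in roX-KO males, 672 to 869 in wild-type females and 774 to 810 in wild-type males. All 14 body wall muscle genes were lower in roX-KO males, at 28030 to 28325 CPM in roX-KO males, 47905 to 50845 in wild-type females and 54492 to 55690 in wild-type males. Gut enterocyte genes were split, with 3 higher and 4 lower of 8, and summed to 1950 to 2201 CPM in roX-KO males, 3308 to 6083 in wild-type females and 2867 to 3642 in wild-type males. No marker of these 5 lists was at 0 counts in every library. In wild-type females against wild-type males, 1 of the 20 neuronal genes was called higher and 0 lower (median 0.36), beside 10.8% and 11.2% over all genes. None of the 14 body wall muscle genes was called there. The part of these cell types in the changes of the peptide genes was not tested.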

How the data were processed

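Polyadenylated RNA of whole first instar larvae was read as 100 base paired ends in 9 libraries, per the labels' protocols. The authors deposited raw counts per gene, 1 file per library. The dm6 genome, HTSeq 2.0.2, HISAT2 2.2.1, DESeq2 and SAMtools 1.13 are named per the submitters' processing notes; those notes give neither their roles nor the annotation release, and whether counting used strand is not given in the sources. Of the reads in those files, 50.0% to 51.9% were in closing lines for reads not assigned to a gene, which were left out. The authors also deposited a table of the 6 male libraries with FPKM, a mean signal per gene, log2 fold changes with standard errors, a test score and p-values, per the file headers; it was used only for the count of called genes stated as the authors'.

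Each comparison was fitted on its 6 libraries over all genes with edgeR 4.0.16 (limma 3.58.1, R 4.3.3): TMM scaling, the filterByExpr filter (minimum count 10, minimum total 15), the robust quasi-likelihood F-test and Benjamini-Hochberg adjustment over all genes tested, with 0.05 as the threshold. CPM and RPKM used TMM factors over 9 libraries and exon lengths of a dm6 gene annotation (Ensembl BDGP6), which gave a symbol to 17556 of 17611 IDs and none to 55. Log2 CPM for correlations used a prior count of 2. Replicate numbers were checked and did not pair libraries between groups, so the main fits hold no block. Figures were drawn with matplotlib 3.10.9, and tables were made with NumPy 2.4.6 and pandas 2.3.3 in Python 3.11.15. With 17318293 to 18020359 counts in genes per library, the precision for genes with few counts is set by counting error.

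Alternatives were DESeq2 1.42.0, its size factors, total counts, factors from the autosome arms, no filter, a minimum count of 50, a fit over 9 libraries, the replicate number as a block and each library left out; removal of the exon length trend was added after the data were seen. The 31 genes and the other lists were chosen with earlier results of these data known. By rule, every called gene of the 31 is given with its counts in each library, the 12 most abundant of those called between the male groups also with CPM, and from each other list up to 4 genes in each direction with no overlap between groups, plus receptors. Full CPM for Ptth, CCHa1 and CCHa2, and markers beyond that rule, were added after their values were seen. No sequence is shown.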

Additional observations from a re-analysis of the deposited data

How the results depend on the processing

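Between roX-KO males and wild-type males, the count of called genes among the 31 stayed within 1.5 times of 21 in every alternative (14 with DESeq2) except the fit over 9 libraries, with 12 called (11 higher, 1 lower); leaving out 1 library gave 17 to 21 called. In wild-type females against wild-type males, the 9 calls became 14 in the fit over 9 libraries, 21 with length-corrected offsets, 23 with length-corrected offsets without female 3, and 0 to 16 when 1 library was left out. In roX-KO males against wild-type females, the 2 calls became 4 with DESeq2, 1 at a minimum count of 50, which drops Ilp5 and 5 others, 5 in the fit over 9 libraries, 6 with length-corrected offsets and 10 with those offsets without female 3, and 1 to 10 when 1 library was left out. Same-numbered libraries did not pair: their deviations correlated at -0.01, -0.01 and -0.01 between the male groups, 0.39, -0.58 and -0.43 between the wild-type groups and 0.01, 0.06 and 0.06 between roX-KO males and females. With the replicate number as a block the counts called were 21, 0 and 2; in the second, 14 genes had an unadjusted p under 0.05 and DESeq2 called 11. The sign of values that were not called, or lost their call, turned in these cases. Between the male groups, Eh ranged from -0.003 (without wild-type male 3) to 0.35 when 1 library was left out, and with length-corrected offsets Burs stood at 0.054, Ilp2 at 0.054 and SIFa at 0.30. Between the wild-type groups, leaving out 1 library gave -0.12 (without female 3) to 0.33 for Ilp2, -0.66 to 0.60 for Ptth and -0.034 to 0.52 for SIFa, and length-corrected offsets without female 3 gave 0.0037 for CCHa2 and -0.55 for Ptth. The cause was not tested. Against females, 19 of the 31 genes changed sign in some alternative, and Capa and Pdf, uncalled before, were called higher in roX-KO males with length-corrected offsets, Pdf only without female 3. Counts limit Ilp5, Ptth, Ilp3, Eh, Dsk and SIFa, which a minimum count of 50 drops.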
